A study of Homo sapiens with 4 samples.

Results

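LIN28A and LIN28B, DROSHA, DGCR8, XPO5, DICER1, TARBP2, AGO1, AGO2 and DIS3L2 encode the LIN28 proteins and the proteins that make, load and degrade microRNAs. These 10 genes were chosen by symbol out of the 33640 genes of 4 RNA libraries, and all 10 had counts in every library. The libraries were made from H9 cells, an established line of human pluripotent stem cells that the labels describe as primed, and each came from extracted nuclei that had been fixed with 0.2% formaldehyde. Reverse transcription (RT) of poly(A) RNA was carried out after (Post) or before (Pre) tagmentation with Tn5. In each order, 1 library was made from cells profiled for RNA and DNA, with antibodies to H3K27me3 and H3K27ac, and 1 for RNA only. For the order of RT, the RNA and DNA libraries form the pair with DNA and the RNA only libraries the pair without DNA. Which tagmentation steps were applied to the RNA only libraries is not given in the sources used here. With 1 library per condition no difference had a replicate check, and every interval below is a 95% interval that covers counting error only.

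LIN28A and LIN28B are RNA-binding proteins of stem cells and early embryos that hold back the let-7 family of microRNAs. A primary microRNA transcript is cut in the nucleus by the Microprocessor, which is the nuclease DROSHA with its partner DGCR8. The hairpin that results is carried to the cytoplasm by XPO5 and is cut again by DICER1, which is helped by TARBP2, and 1 strand is loaded into an Argonaute protein such as AGO1 or AGO2. LIN28 binds let-7 precursors, in large part through the letters GGAG in the terminal loop. LIN28A brings in the uridylyl transferases TUT4 and TUT7, whose U tail marks the precursor for the exonuclease DIS3L2. In pluripotent stem cells let-7 is held low, whereas the miR-302 family is made in large amounts.

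The libraries read long poly(A) transcripts, so mature microRNAs were not measured. Their sequences are shown because they are what this machinery makes and what LIN28 acts on. They were taken from RefSeq annotation of GRCh38.p14 and are written 5′ to 3′ with the seed, bases 2 to 8, in capitals. The 9 mature let-7 microRNAs share the seed GAGGUAG, which 11 of the 2370 mature microRNAs of the table hold.
let-7a-5p: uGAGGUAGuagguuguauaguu
let-7b-5p: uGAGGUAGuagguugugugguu
let-7c-5p: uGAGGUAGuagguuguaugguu
let-7d-5p: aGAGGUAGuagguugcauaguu
let-7e-5p: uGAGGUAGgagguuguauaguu
let-7f-5p: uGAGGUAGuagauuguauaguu
let-7g-5p: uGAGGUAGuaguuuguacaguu
let-7i-5p: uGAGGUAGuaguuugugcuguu
miR-98-5p: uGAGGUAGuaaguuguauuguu
The 4 miR-302 microRNAs share another seed, AAGUGCU, held by 12 of the 2370.
miR-302a-3p: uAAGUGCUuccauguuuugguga
miR-302b-3p: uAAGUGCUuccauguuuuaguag
miR-302c-3p: uAAGUGCUuccauguuucagugg
miR-302d-3p: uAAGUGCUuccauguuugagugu

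The letters GGAG occur in 9 of the 12 let-7 family hairpins of the table and in 677 of all its 1560 hairpins (43.4%), counted on the RNA strand and anywhere in the hairpin. A match is a description of the sequence and not a measured binding site. A pair of hairpins with the motif and the 3 without it are given here, with every GGAG in capitals, because the presence of these letters is the feature by which the family differs here.
let-7g, with GGAG, chr3:52268278-52268361, minus strand: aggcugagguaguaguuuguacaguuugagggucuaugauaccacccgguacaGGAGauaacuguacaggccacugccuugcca
let-7i, with GGAG, chr12:62603686-62603769, plus strand: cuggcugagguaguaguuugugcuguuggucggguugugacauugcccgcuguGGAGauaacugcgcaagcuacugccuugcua
let-7a-3, without GGAG, chr22:46112749-46112822, plus strand: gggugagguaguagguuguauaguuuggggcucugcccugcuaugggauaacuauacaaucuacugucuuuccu
let-7b, without GGAG, chr22:46113686-46113768, plus strand: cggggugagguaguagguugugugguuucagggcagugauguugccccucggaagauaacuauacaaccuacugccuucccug
miR-98, without GGAG, chrX:53556223-53556341, minus strand: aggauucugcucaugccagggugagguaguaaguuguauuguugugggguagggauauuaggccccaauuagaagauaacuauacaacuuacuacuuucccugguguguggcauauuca

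Total counts were between 6368721 and 10089552 per library, and levels are given as RPM, counts scaled to the total of the library. The 6 genes of the clones FP236383 and FP671120 made up 34.8% of all counts in Post, RNA only and 10.7% to 15.8% in the other libraries, which lowers the RPM of all other genes in Post, RNA only. Ratios between libraries are therefore given as log2 of RPM + 1, relative to the median over 11564 genes that averaged 10 RPM or more. For Post over Pre that median was −0.44 without DNA and −0.09 with DNA, and 0.38 for RNA and DNA over RNA only in the Post pair and 0.03 in the Pre pair. All 7 pluripotent cell markers and all 6 primed markers were past 10 RPM in every library, the pluripotent set led by L1TD1, PODXL and POU5F1 and the primed set by CD24, and their sums were 1514 to 2170 RPM and 711 to 942 RPM. The 6 naive markers summed to 5.81 to 7.48 RPM. The 12 markers of other cell types summed to 32.0 to 47.5 RPM, most of it from COL1A2 (20.3 to 29.6 RPM). COL1A1 had 7.38 to 10.8 RPM, FOXA2 2.04 to 4.46 RPM and PAX6 0.942 to 2.18 RPM. PTPRC and ALB lay between 0.107 and 1.19 RPM, and MESP1, LUM and DCN were at 0.595 RPM or below. SOX1, TBXT and SOX17 were each at 0 in 3 of the 4 libraries. In bulk libraries fewer cells of a type and less RNA per cell cannot be told apart.

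LIN28A and LIN28B had the highest values of the 10 genes, by RPM and per kilobase. By RPM the intervals of LIN28B and AGO2 overlapped in both Pre libraries. LIN28A, on chromosome 1 (chr1:26410817-26429728 of GRCh38, plus strand, a span of 18.9 kb), had 221 RPM in Post, RNA and DNA, 244 RPM in Post, RNA only, 292 RPM in Pre, RNA and DNA and 258 RPM in Pre, RNA only, and the interval of the lowest was 211 to 230 RPM. Its highest value was 1.32 times its lowest, and Pre, RNA and DNA was the highest library. LIN28B, on chromosome 6 (chr6:104936616-105083332, plus strand, 147 kb), had 211 RPM in Post, RNA and DNA, 165 RPM in Post, RNA only, 211 RPM in Pre, RNA and DNA and 205 RPM in Pre, RNA only. It was lowest in Post, RNA only, the library with the large share of clone genes, and nearly level in the others. An antisense gene that overlaps it, LIN28B-AS1, had 4.36 to 5.80 RPM. The strand setting of the counting is not given in the sources used here, so reads of overlapping genes cannot be told apart.

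Levels of different genes were compared per kilobase of merged exon length. Whether reads in introns were counted is not given in the sources used here, and exons make up from 2.96% (DIS3L2) to 74.2% (TARBP2) of the gene span, with 21.0% for LIN28A and 4.05% for LIN28B. If such reads were counted, values per kilobase of exon, and the order and ratios of genes read from them, do not compare genes on 1 scale. LIN28A had 55.5 to 73.4 RPM per kb and LIN28B 27.8 to 35.5 RPM per kb, and they were first and second in each of the 4 libraries, also by RPM and per kilobase of the longest transcript. By RPM their order was not settled in Post, RNA and DNA, where their intervals were 211 to 230 and 202 to 220 RPM. The second place by RPM was not settled in the Pre libraries. LIN28B and AGO2 had intervals of 202 to 221 and 190 to 208 RPM in Pre, RNA and DNA. In Pre, RNA only these were 196 to 215 and 180 to 198 RPM. The ratio of LIN28B over LIN28A within a library does not depend on the scaling between libraries. Per kilobase of exon it was 0.639 (interval 0.602 to 0.679) in Post, RNA and DNA, 0.453 (0.418 to 0.490) in Post, RNA only, 0.484 (0.456 to 0.514) in Pre, RNA and DNA and 0.531 (0.500 to 0.564) in Pre, RNA only. LIN28B thus lay below LIN28A per kilobase in every library. The interval of Post, RNA and DNA overlapped none of the other 3. That of Pre, RNA and DNA overlapped those of Post, RNA only and of Pre, RNA only, which did not overlap each other.

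Per kilobase of exon the Microprocessor genes lay below both LIN28 genes in every library. DROSHA, the nuclease that makes the first cut, lies on chromosome 5 (chr5:31400494-31532196, minus strand) and had 95.7 RPM in Post, RNA and DNA, 62.0 RPM in Post, RNA only, 94.6 RPM in Pre, RNA and DNA and 89.6 RPM in Pre, RNA only. DGCR8, its double-stranded RNA-binding partner, lies on chromosome 22 (chr22:20080221-20111877, plus strand) and had 50.7, 29.4, 54.6 and 56.6 RPM in Post, RNA and DNA, Post, RNA only, Pre, RNA and DNA and Pre, RNA only. In RPM DGCR8 varied most of the 10 genes, with a highest value 1.93 times the lowest. Its low value was that of Post, RNA only, where the clone genes lower the RPM of all other genes. Per kilobase of exon DGCR8 over DROSHA was 0.563 (interval 0.505 to 0.627) in Post, RNA and DNA, 0.503 in Post, RNA only, 0.613 in Pre, RNA and DNA and 0.671 (0.601 to 0.749) in Pre, RNA only. The DGCR8 transcript carries microRNA hairpins in its own exons, which the Microprocessor is known to cut, and their mature sequences are shown, with the seed in capitals, for that reason.
miR-3618: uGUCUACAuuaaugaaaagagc
miR-1306-5p: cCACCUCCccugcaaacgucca
miR-1306-3p: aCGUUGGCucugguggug
These lie at chr22:20085797-20085818, chr22:20086072-20086093 and chr22:20086112-20086129 on the plus strand. Whether the hairpins were cut was not measured.

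XPO5, the exportin of precursor hairpins, lies on chromosome 6 (chr6:43522334-43576038, minus strand) and had 94.95 RPM in Post, RNA and DNA, 66.7 RPM in Post, RNA only, 106 RPM in Pre, RNA and DNA and 109 RPM in Pre, RNA only. It shares 40086 bases with POLR1C on the opposite strand, which had 71.6 to 110 RPM, so that the split of reads between these 2 genes is uncertain. DICER1 (chr14:95086228-95158010, minus strand) had 127 RPM in Post, RNA and DNA, 106 RPM in Post, RNA only, 144 RPM in Pre, RNA and DNA and 138 RPM in Pre, RNA only. Its highest RPM was 1.36 times its lowest, which with LIN28A and LIN28B is among the 3 narrowest RPM ranges of the 10 genes. These ranges include the lowered RPM of Post, RNA only, and a narrow one is not a steady level relative to other genes. LIN28A had a relative log2 ratio of −0.52 for RNA and DNA over RNA only in the Post pair. TARBP2 (chr12:53500921-53506431, plus strand, 5.51 kb), which encodes a double-stranded RNA-binding partner of Dicer, was the least abundant on both scales, with 4.16 RPM from 42 counts in Post, RNA and DNA and 6.91 RPM (interval 5.02 to 9.27) from 44 counts in Post, RNA only. It had 7.48 RPM from 67 counts in Pre, RNA and DNA and 6.61 RPM from 62 counts in Pre, RNA only. TARBP2 was the only 1 of the 10 genes below a mean of 10 RPM and was left out of the counts of genes apart between libraries, which leaves 9.

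The Argonaute genes AGO1 (chr1:35869808-35930532, plus strand) and AGO2 (chromosome 8, a span of 115 kb) encode proteins that hold the mature microRNA, and AGO2 can also cut a target. AGO1 had 117 RPM in Post, RNA and DNA, 84.0 RPM in Post, RNA only, 133 RPM in Pre, RNA and DNA and 117 RPM in Pre, RNA only. AGO2 had 170 RPM in Post, RNA and DNA, 113 RPM in Post, RNA only, 199 RPM in Pre, RNA and DNA and 189 RPM in Pre, RNA only. Both were lowest in Post, RNA only. Within a library AGO2 over AGO1 per kilobase of exon was 1.29 in Post, RNA and DNA, 1.19 in Post, RNA only, 1.32 in Pre, RNA and DNA and 1.43 in Pre, RNA only, with every interval above 1. DIS3L2 (chr2:231961245-232344350, plus strand), the exonuclease that degrades uridylated let-7 precursors, has the longest span of the 10 genes at 383 kb. It had 117 RPM in Post, RNA and DNA, 71.9 RPM in Post, RNA only, 104 RPM in Pre, RNA and DNA and 108 RPM in Pre, RNA only, so that Post, RNA and DNA was the highest library for this gene.

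Below the LIN28 genes the order by mean RPM per kb of exon was XPO5 (11.1), DROSHA (10.99), AGO2 (10.6), DIS3L2 (8.84), AGO1 (8.03), DGCR8 (6.53), DICER1 (5.81) and TARBP2 (1.54). The counting intervals of neighbours among XPO5, DROSHA and AGO2 overlapped in all 4 libraries. DROSHA and AGO2, which were not neighbours in Post, RNA and DNA, did not overlap there (11.5 to 13.1 and 10.2 to 11.3 RPM per kb). Apart from that, these 3 had no settled order. LIN28A and LIN28B, and LIN28B and the third gene, did not overlap in any library, and TARBP2 was last without overlap in each. DIS3L2 and AGO1 overlapped in Post, RNA only and in Pre, RNA and DNA and not in the other 2 libraries.

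**Figure D1:**
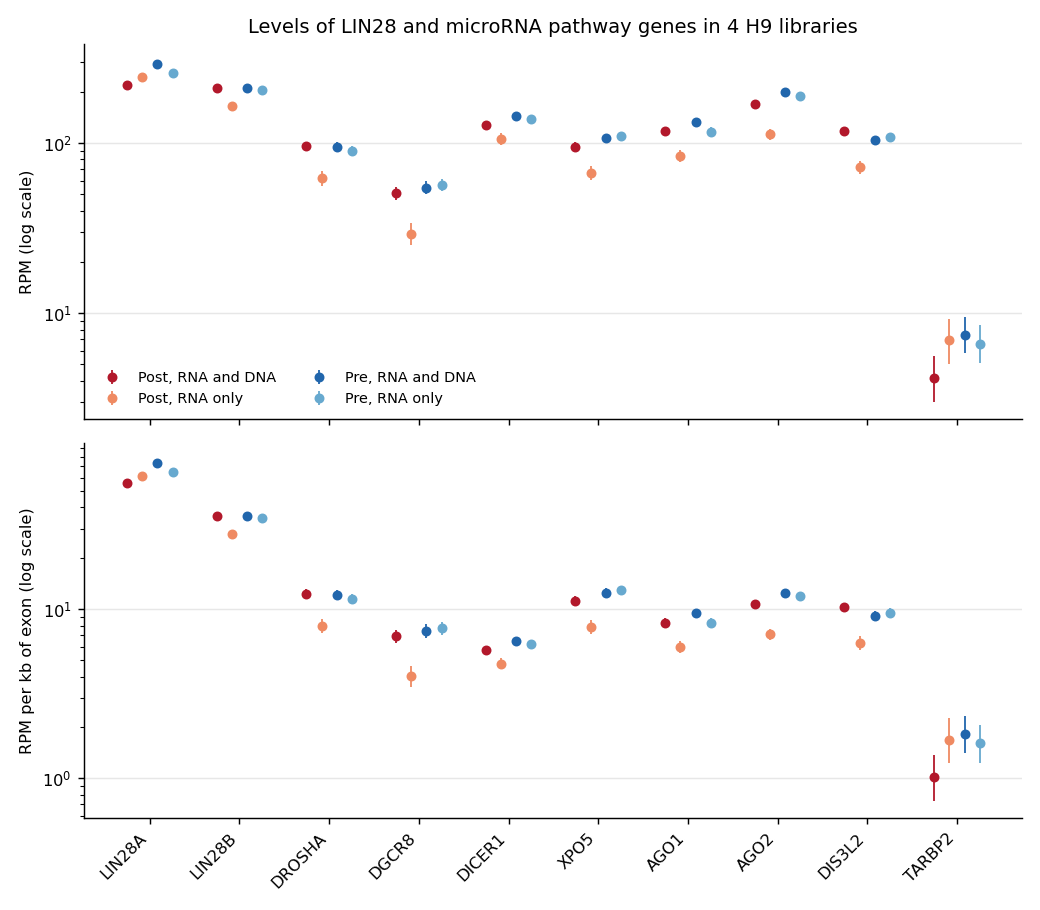
Levels of the 10 genes in the 4 libraries, as RPM (upper plot) and as RPM per kilobase of merged exon length (lower plot), both on log axes, with exact 95% Poisson intervals of the count as bars. LIN28A, at 55.5 to 73.4 RPM per kb, and LIN28B, at 27.8 to 35.5, stand above the other genes, TARBP2 at 1.02 to 1.83 stands below them, and Post, RNA only is the lowest library for 8 of the 10 genes by RPM.

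The order of RT and tagmentation was compared to see whether transcripts are captured alike when RT follows tagmentation. None of the 9 genes past 10 RPM lay 2-fold or more from the median of all genes in either pair. Of all genes tested, 1.38% did so in the pair without DNA and 0.251% in the pair with DNA, and 0.147% did so the same way in both, so that 0 of 9 is close to the share among all genes. The median of the 9 relative log2 ratios was −0.09 in the pair without DNA, with values between −0.49 (DGCR8) and 0.35 (LIN28A), and −0.07 in the pair with DNA, with values between −0.31 (LIN28A) and 0.27 (DIS3L2). The quartiles of all genes were −0.19 and 0.21 without DNA and −0.16 and 0.14 with DNA. edgeR's quasi-likelihood test in an additive model of both factors called none of the 9 genes for the order of RT and 2 of all genes (0.0173%) at a Benjamini-Hochberg adjusted p of 0.05. DESeq2 called none of the 9 and 26 of all genes (0.225%). At an unadjusted p under 0.05 neither tool had any of the 9, against 357 (3.09%) and 108 (0.934%) of all genes, and this model leaves 1 residual degree of freedom. That degree of freedom is the difference between the pairs, so an effect that differs between them, as for LIN28A, is read as spread. A lack of calls from this model is therefore no check of such an effect.

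Differences smaller than 2-fold were still larger than the counting error for several genes. The counting interval of the ratio lay wholly on 1 side of the median of all genes for 5 of the 9 genes in the pair without DNA, as it did for 40.2% of all genes, and for 4 of the 9 in the pair with DNA, against 37.4% of all genes. Nothing particular to these genes is read from these counts. DGCR8 had a relative log2 ratio of −0.49 (interval −0.76 to −0.27) in the pair without DNA and −0.01 (−0.19 to 0.17) in the pair with DNA. AGO2 lay below the median in both, at −0.30 (−0.43 to −0.18) and −0.13 (−0.23 to −0.03) in the same order of pairs, and LIN28B lay above it in both, at 0.12 (0.01 to 0.23) and 0.09, the second with a lower bound just above 0. XPO5 was at −0.27 (−0.44 to −0.11) and −0.07. DIS3L2 was at −0.15 and 0.27 (0.14 to 0.39). The intervals of DROSHA, DICER1 and AGO1 included the median in both pairs. An interval on the same side in both pairs was found for 2 of the 9 genes and 8.20% of all genes.

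**Figure D2:**
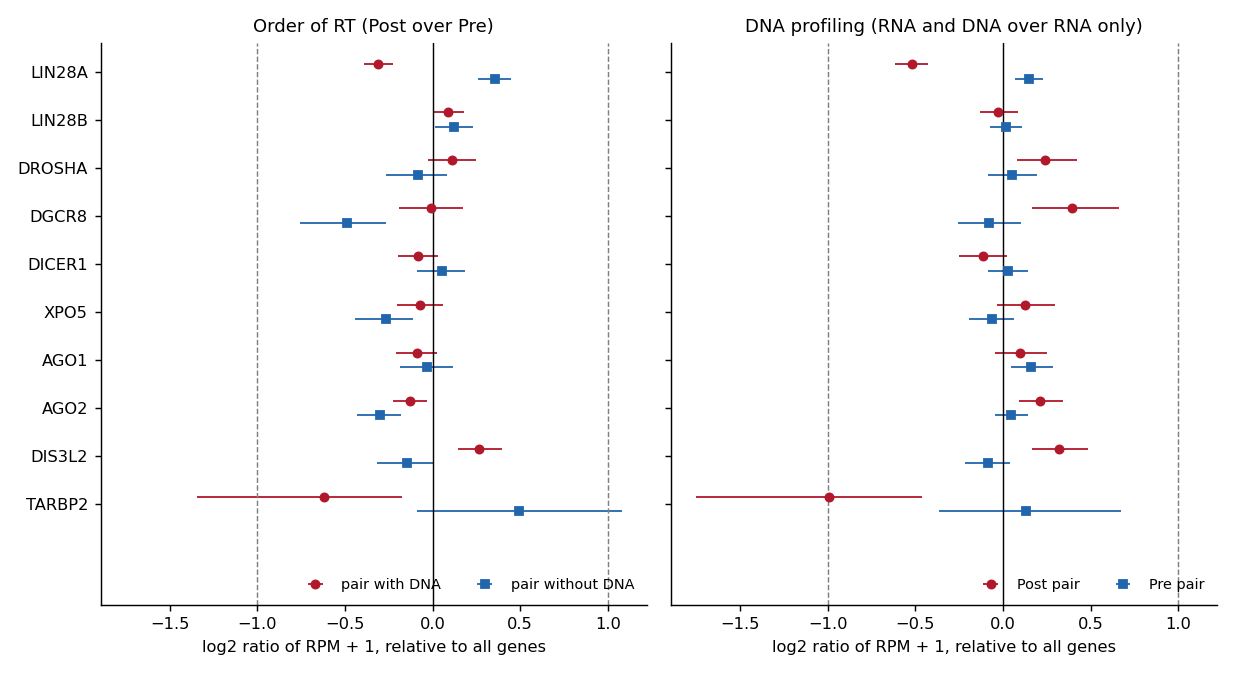
Log2 ratios of RPM + 1, relative to the median of all genes (0), for Post over Pre (left) and for RNA and DNA over RNA only (right), with exact 95% counting intervals of the ratio as bars and dashed lines at 2-fold. LIN28A lies at −0.31 and 0.35 in the 2 pairs on the left, on opposite sides of 0, and no gene but TARBP2, which is below the filter, comes near a dashed line.

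LIN28A was the 1 gene of the 9 whose intervals lay on opposite sides of the median in the 2 pairs, as they did for 10.2% of all genes. Post over Pre gave it a relative log2 ratio of 0.35 (interval 0.26 to 0.45) without DNA and −0.31 (−0.39 to −0.23) with DNA. The difference between the pairs was 0.66 (0.54 to 0.79), and 10.7% of all genes differed by as much. With no median subtracted, the log2 ratios of LIN28A were −0.08 in the pair without DNA and −0.40 in the pair with DNA, both below 0, so the opposite sides hold relative to other genes and not in RPM. DGCR8 and DIS3L2 differed between the pairs in the other direction, by −0.48 (−0.80 to −0.20) and −0.41 (−0.62 to −0.22).

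Among all genes these ratios moved with the length of the gene, and LIN28A, at 18.9 kb, is the shortest of the 9. Over the 10262 tested genes with a span in the annotation used here (88.7%), the relative log2 ratio of Post over Pre had a Spearman correlation with gene span of −0.315 in the pair without DNA and of 0.487 in the pair with DNA. These are descriptions across genes of the same 4 libraries, which are not independent replicates. Genes under 20 kb had medians of 0.22 and −0.20 in the pair without DNA and the pair with DNA, and genes over 100 kb had medians of −0.08 and 0.10. Of the 2205 genes under 20 kb, 58.5% were over the median of all genes without DNA and under it with DNA, as LIN28A was, against 6.88% of the 3038 genes over 100 kb. TARBP2, at 5.51 kb, was at 0.49 and −0.62 in the same order, with few counts. The part of gene length in the ratio of any 1 gene was not tested. Several genes lay outside the quartiles of their span class. In the pair without DNA LIN28B (0.12) lay above and AGO2 (−0.30) below those of genes over 100 kb, which were −0.247 and 0.0936. DGCR8 (−0.49, 31.7 kb) and XPO5 (−0.27) lay below the lower quartile of genes between 20 and 100 kb, whose quartiles were −0.21 and 0.15. In the pair with DNA AGO2 (−0.13) lay below and DIS3L2 (0.27) above those of genes over 100 kb, which were 0.0076 and 0.205. The other values of the 9 genes lay within the quartiles of their class.

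**Figure D3:**
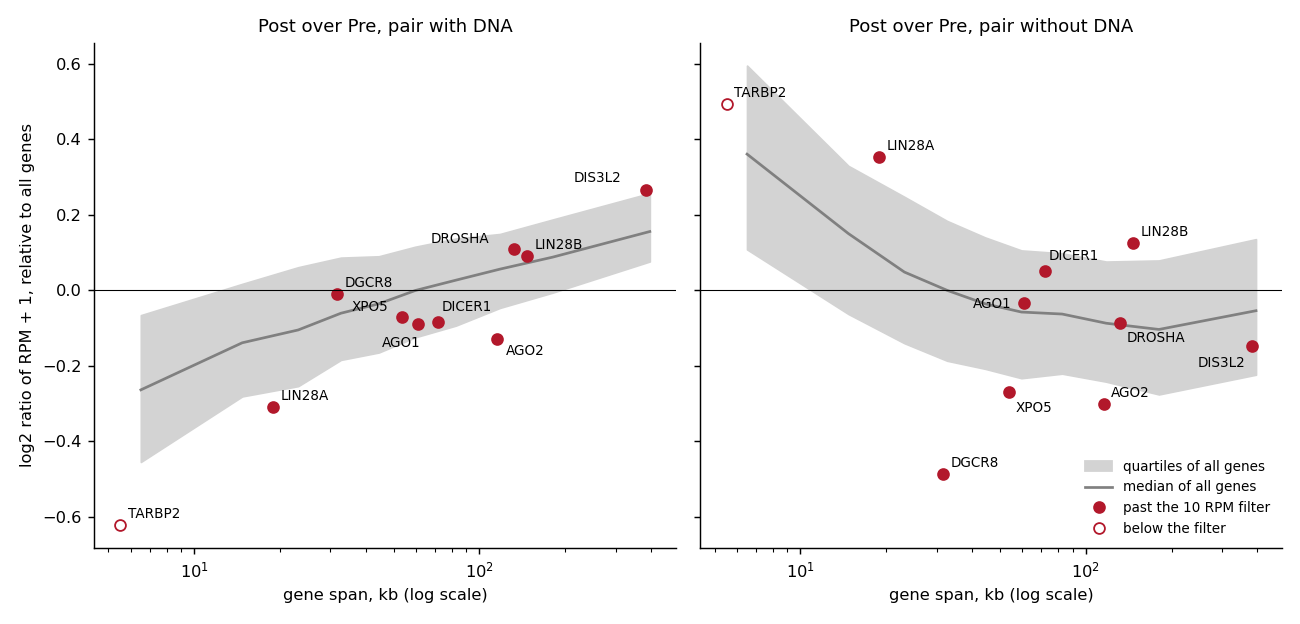
Relative log2 ratio of Post over Pre against gene span (log axis) in the pair with DNA (left) and the pair without DNA (right). Points are the 10 genes, open for TARBP2, and the grey line and band are the median and the range between the quartiles of all tested genes in 10 equal groups by span. The line rises with span on the left and falls and then levels off on the right, and LIN28A lies at −0.31 on the left and 0.35 on the right.

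Profiling DNA together with RNA was compared with RNA only in the same way, and these comparisons use the same 4 libraries. None of the 9 genes lay 2-fold or more from the median of all genes in the Post pair (2.36% of all genes did) or in the Pre pair (0.0173% of all genes). In the Post pair the counting interval excluded the median for 5 of the 9 genes (41.1% of all genes). LIN28A was below it at −0.52 (interval −0.62 to −0.43), and DROSHA (0.24), DGCR8 (0.39), AGO2 (0.21) and DIS3L2 (0.32) were above it. In the Pre pair it did so for 2 of the 9 genes (14.5% of all genes), LIN28A at 0.15 (0.07 to 0.23) and AGO1 at 0.16 (0.04 to 0.28). LIN28B was at −0.03 in the Post pair and 0.02 in the Pre pair, and both of its intervals included the median. TARBP2, below the filter, was at −0.99 in the Post pair from 42 counts in RNA and DNA and 44 in RNA only. Spearman's correlation of these ratios with gene span across genes was 0.535 in the Post pair and −0.228 in the Pre pair. edgeR called none of all genes for DNA profiling, with 67 (0.579%) at an unadjusted p under 0.05, DESeq2 called 1 (0.00865%) with 35 (0.303%) at an unadjusted p under 0.05, and none of the 9 genes was among any of these.

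The other proteins of the pathway were read from 6 lists that hold 54 genes, all of them past 10 RPM. None of the 54 lay 2-fold or more from the median of all genes in any of the 4 comparisons, and for Post over Pre the median of their relative log2 ratios was −0.04 without DNA and −0.08 with DNA. The counting interval was above that of all genes for 11 and below it for 14 of the 54 in the pair without DNA (18.8% and 21.4% of all genes), and above it for 7 and below it for 18 in the pair with DNA (17.7% and 19.7% of all genes). Counting intervals narrow with more counts, and these ratios moved with gene span. The shares of all genes were matched for neither, so nothing particular to a list, here or below, is read from such counts. From each list the genes with the most RPM are given, at most 3.

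Among the 11 LIN28 partners and factors of let-7 tailing and decay the most abundant were TRIM71, XRN2 and TUT4. TRIM71, a stem cell RNA-binding protein and itself a let-7 target, had 509 RPM in Post, RNA and DNA, 352 RPM in Post, RNA only, 543 RPM in Pre, RNA and DNA and 542 RPM in Pre, RNA only, lowest in Post, RNA only. XRN2, a nuclear exonuclease, had 160 to 204 RPM. TUT4, which adds the U tail that LIN28A calls for, had 150 RPM in Post, RNA and DNA, 109 RPM in Post, RNA only, 165 RPM in Pre, RNA and DNA and 159 RPM in Pre, RNA only, with relative log2 ratios of Post over Pre of −0.10 in the pair without DNA and −0.04 in the pair with DNA. Its relative TUT7, named here after its values were seen, had 39.6 to 59.8 RPM.

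Among the 14 Microprocessor cofactors and proteins that bind primary microRNAs, HNRNPA2B1 (472 to 734 RPM) and HNRNPA1, which binds the loop of some precursors (307 to 447 RPM), were the most abundant by RPM. In the pair with DNA 12 of these 14 genes lay below the median of all genes, and the counting interval of 8 did so (19.7% of all genes), with HNRNPA1 at −0.45. In the pair without DNA 7 lay above and 7 below, 4 each by their counting interval (18.8% and 21.4% of all genes). As above, these shares are not matched for counts or span. The 3 export genes were XPO1 (275 to 388 RPM), RAN, the GTPase that drives export (82.4 to 109 RPM), and PHAX (36.7 to 49.2 RPM). RAN, which spans 5.64 kb, was at 0.54 without DNA and −0.31 with DNA. PRKRA, the other double-stranded RNA-binding partner of Dicer, had 38.8 RPM in Post, RNA and DNA, 29.8 RPM in Post, RNA only, 46.5 RPM in Pre, RNA and DNA and 42.5 RPM in Pre, RNA only.

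Of the 9 genes of the silencing complex, the chaperones HSP90AB1 (924 to 1416 RPM) and HSP90AA1 (672 to 1004 RPM), which help to load Argonaute, led by RPM, followed by TNRC6B (241 to 413 RPM), a scaffold that links Argonaute to deadenylases. In the pair without DNA 8 of these 9 lay below the median of all genes, 5 of them by their counting interval (21.4% of all genes), and the list median was −0.18. In the pair with DNA 6 lay below it, 2 of them by their counting interval (19.7% of all genes), and the list median was −0.04. TNRC6B was at −0.34 in the pair without DNA and −0.04 in the pair with DNA. Of the 16 effectors of silencing, PABPC1, the poly(A)-binding protein, had 391 to 486 RPM, CNOT1, the scaffold of the CCR4-NOT deadenylase, 216 to 262 RPM and PAN3 173 to 259 RPM. Their list median was 0.11 in the pair without DNA and −0.08 in the pair with DNA, and PABPC1 was at 0.36 and −0.22 in the same order.

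**Figure D4:**
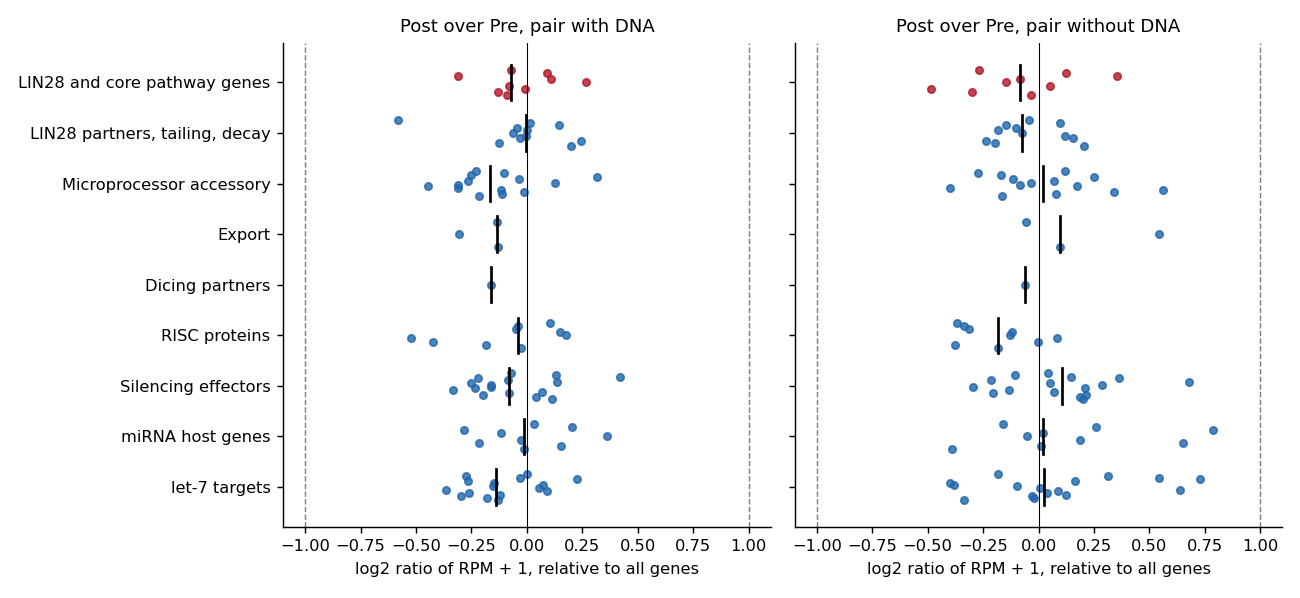
Relative log2 ratios of Post over Pre for the 9 genes and for the pathway, host gene and let-7 target lists, genes past 10 RPM only and marker lists not drawn, in the pair with DNA (left) and the pair without DNA (right), where each point is a gene, black bars are list medians and dashed lines mark 2-fold. No point reaches a dashed line, and the medians of the plotted groups lie between −0.18 and 0.11.

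Host genes of microRNAs were read as transcripts, since most microRNAs lie inside longer RNAs. Of 16 listed hosts, 14 had counts and 9 were past 10 RPM, and none of the 9 was 2-fold or more from the median of all genes in either comparison of the order of RT. HUWE1, which holds miR-98 and let-7f-2 on its own strand, had 439 RPM in Post, RNA and DNA, 312 RPM in Post, RNA only, 421 RPM in Pre, RNA and DNA and 420 RPM in Pre, RNA only. LARP7 had 110 RPM in Post, RNA and DNA, 144 RPM in Post, RNA only, 136 RPM in Pre, RNA and DNA and 124 RPM in Pre, RNA only, and EVL had 63.1 to 113 RPM. MIR302CHG, named after its values were seen because it is annotated as the host of the miR-302 cluster, had 77.5 RPM in Post, RNA and DNA, 113 RPM in Post, RNA only and 88.8 RPM in Pre, RNA only, with Pre, RNA and DNA between the last 2. It overlaps LARP7 on the opposite strand, and without the strand setting their reads cannot be told apart. The relative log2 ratios of MIR302CHG and LARP7 were 0.78 and 0.65 without DNA and −0.28 and −0.21 with DNA, the same direction of difference as LIN28A. MIR302CHG spans 3.58 kb and LARP7 20.6 kb. Of genes under 20 kb 58.5% lay above the median without DNA and below it with DNA, and of genes between 20 and 100 kb 23.5% did so. MIRLET7BHG, the host of let-7a-3 and let-7b, also named after its values were seen, had 2.68 to 3.67 RPM, and MIR100HG, the host of let-7a-2, 22.6 to 40.0 RPM. Transcription of a host does not give the level of its mature microRNA.

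The 16 textbook targets of let-7 were all past 10 RPM, and none was 2-fold or more from the median of all genes in any comparison. IGF2BP3, an oncofetal mRNA-binding protein, had 573 RPM in Post, RNA and DNA, 373 RPM in Post, RNA only, 679 RPM in Pre, RNA and DNA and 667 RPM in Pre, RNA only. Next came TRIM71, given above, and IGF2BP1, with 315 to 469 RPM. HMGA2 and HMGA1, which encode chromatin proteins, were picked once their values had been seen. HMGA2, the best known let-7 target, had 300 RPM in Post, RNA and DNA, 220 RPM in Post, RNA only, 308 RPM in Pre, RNA and DNA and 298 RPM in Pre, RNA only, with relative log2 ratios of 0.01 in the pair without DNA and 0.05 in the pair with DNA. HMGA1, which spans 9.36 kb, had 157, 238, 215 and 207 RPM in Post, RNA and DNA, Post, RNA only, Pre, RNA and DNA and Pre, RNA only, and relative log2 ratios of 0.64 in the pair without DNA and −0.36 in the pair with DNA. In the pair with DNA 11 of the 16 targets lay below the median of all genes, 9 of them by their counting interval (19.7% of all genes), with a list median of −0.14. Without DNA the counting interval was above the median for 5 and below it for 5 of the 16 (18.8% and 21.4% of all genes), and the list median was 0.02. The shares of all genes are not matched for counts or span, so nothing particular to the targets is read from these counts.

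The 4 values of LIN28A were also compared with those of the other 11563 genes past 10 RPM, after each gene was centred on its own mean and each library on its median. ACAT2 lay nearest to LIN28A, with a root mean square difference of 0.006 on the log2 scale over 4 libraries, and IDI1 next at 0.008. For LIN28B the nearest was SMCHD1 (0.003). With 4 values per gene such likeness was common, since 7.74% of the genes lay within 0.1 of LIN28A and 30.0% within 0.1 of LIN28B.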

How the data were processed

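RNA counts of 4 H9 libraries, 1 per condition, were used. The authors deposited whole-number counts per gene symbol, made from reads without duplicates and not normalized. The submitters' processing notes name STAR 2.7.11b, Bowtie2 2.5.3, Bowtie 1.3.1, SAMtools and Trim Galore 0.6.10, and the build GRCh38. The methods describe barcode assignment, alignment and removal of duplicates by position and unique molecular identifier for single cells, and do not say whether these bulk libraries were treated alike. The gene annotation, the strand setting and the use of reads in introns are not given in the sources used here. The files hold 60 further barcode columns that no label describes, which were not used.

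Counts were divided by library totals (6368721 to 10089552) to give RPM. Genes that averaged 10 RPM or more were compared by log2 of RPM + 1, relative to the median of all genes tested, and called at 2-fold. Intervals are exact Poisson intervals for RPM and exact binomial intervals for ratios, which are taken without the added 1 RPM. Additive models of both factors were fitted with edgeR 4.0.16 and DESeq2 1.42.0 as alternatives. The other alternatives were scalings, pseudocounts, filters, folds, thinning and other gene lengths. Scripts were tested on simulated counts. Genes and lengths came from GENCODE release 44 on GRCh38, the build of the labels, matched by symbol, and microRNAs from RefSeq (GRCh38.p14). All 10 genes matched.

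The 10 genes, the 12 lists and the rules were chosen with earlier results of these data known. The rule that reads counting intervals and the comparison with gene span were added after seeing the data. Named beside the 10 genes are the 3 most abundant of each list, any listed gene past 2-fold for the order of RT, and the 2 nearest in pattern to each LIN28 gene. A few genes that this rule names are not reported here. The software was Python 3.11.15 with scipy 1.17.1, numpy 2.4.6, matplotlib 3.10.9 and pandas 2.3.3, and R 4.3.3.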

Additional observations from a re-analysis of the deposited data

Results flagged for a closer look

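LIN28A moved in opposite directions relative to other genes in the pairs of the order of RT. The relative log2 ratio of Post over Pre in the pair without DNA minus that in the pair with DNA was 0.663 (counting interval 0.541 to 0.787), from 0.35 and −0.31. With 1 library per condition the difference could not be tested against replicates, and 10.7% of all genes differed by as much. Across genes each of these ratios moved with gene span (Spearman correlation −0.315 without DNA and 0.487 with DNA). The part of gene span in the difference was not tested.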

How the results depend on the processing

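No paired analysis was possible because the labels give no replicate numbers, apart from the additive model, which compares Post with Pre within each DNA status. With 1 library per condition none could be left out. Ratios are relative to the median of all genes, so a change of scaling cancels apart from the pseudocount and is no check of them. The counts of genes 2-fold or more apart were 0 in all 4 comparisons under each of the scalings, pseudocounts, filters and thinned counts, with no median subtracted and at 1.5-fold. By counting intervals, a rule chosen after seeing the data, they were 5, 4, 5 and 2. The count for the order of RT in both pairs was 0 with edgeR, DESeq2 and at 1.5-fold. The median relative log2 ratio of the genes moved by more than the counting error in 3 cases. With no median subtracted it was −0.52 for Post over Pre in the pair without DNA and 0.50 for RNA and DNA over RNA only in the Post pair, and with no filter it was −0.28 for the first. Of the 36 ratios of the 9 genes past the filter, 6 changed sign with no median subtracted, LIN28A in the pair without DNA among them, 4 with no filter, 1 at the pseudocount of 5 RPM, 1 in thinned counts, 2 at the filter of 1 RPM, and 1 of 32 at that of 50 RPM, which DGCR8 does not pass. LIN28B over LIN28A was 0.956 in Post, RNA and DNA, 0.677 in Post, RNA only, 0.724 in Pre, RNA and DNA and 0.795 in Pre, RNA only in counts not divided by length, and 0.697, 0.494, 0.528 and 0.580 in the same order per longest transcript. Ordered by RPM, 6, 5, 6 and 7 of the 10 places changed in the same order of libraries, and per longest transcript 6 in each. LIN28A and LIN28B kept the first and second place by value throughout. In counts not divided by length the interval of their ratio in Post, RNA and DNA was 0.900 to 1.01, so their order was not settled there. By RPM the intervals of LIN28B and AGO2 overlapped in both Pre libraries, so the second place was not settled in those. Depth limits TARBP2 most, with 42 to 67 counts.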
